A study of Rattus norvegicus with 12 samples.

Results

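The genes described here encode the calcium cycling machinery of the sarcoplasmic reticulum (SR). They are the calcium pumps Atp2a1 and Atp2a2, the pump regulators Pln and Sln, the release channel Ryr2 with its binding protein Fkbp1b, and the luminal and junctional proteins Casq1, Casq2, Hrc, and Trdn. All transcripts carrying 1 of these 10 gene names were taken, which gave 13 of the 18752 transcripts and 10 of the 17301 gene names listed. They were compared between adult rat ventricular myocytes (ARVMs) transduced for 48 h with Ad-GFP, an adenovirus encoding enhanced green fluorescent protein, and ARVMs transduced with Ad-h-NR4A2, an adenovirus encoding human NR4A2 under the cytomegalovirus promoter. Each group held 6 samples, both viruses were given at a multiplicity of infection (MOI) of 50, and all cells came from hearts of Sprague-Dawley rats, which the study describes as male. NR4A2 is a nuclear receptor induced early by β-adrenergic stimulation. Cells of both groups were cultured on laminin in the presence of 2,3-butanedione monoxime, an inhibitor of myosin that keeps isolated myocytes from contracting. The age of the rats is given only as adult.

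In a ventricular myocyte, the SR stores calcium between beats. Calcium entering through the cell membrane opens ryanodine receptors in the SR membrane, and the calcium released through them starts contraction. Relaxation follows as the SR calcium ATPase (SERCA) pumps calcium back, and phospholamban (Pln) and sarcolipin (Sln) are small membrane peptides that inhibit this pump. SERCA2, encoded by Atp2a2, is the cardiac pump, whereas SERCA1, encoded by Atp2a1, is the pump of fast skeletal muscle. Within the lumen, calsequestrin buffers the stored calcium, and triadin (Trdn) ties calsequestrin to the ryanodine receptor. Phosphorylation of phospholamban is a main route by which β-adrenergic stimulation strengthens the heartbeat and speeds relaxation.

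Pln and Atp2a2 were the most abundant of these transcripts and encode an inhibitor and its pump, and Ryr2 and Casq2 encode the release channel and the calcium buffer next to it. Their promoters are shown for that reason. The sequences run 5′ to 3′ from 250 bases before to 50 bases after the start of the gene, are from RefSeq on the GRCr8 build, and all lie on the plus strand, at chr20:33172244-33172543 for Pln, chr12:39733269-39733568 for Atp2a2, chr17:63081277-63081576 for Ryr2, and chr2:192214306-192214605 for Casq2. Capitals mark the only match found to any of the motifs searched.
Pln: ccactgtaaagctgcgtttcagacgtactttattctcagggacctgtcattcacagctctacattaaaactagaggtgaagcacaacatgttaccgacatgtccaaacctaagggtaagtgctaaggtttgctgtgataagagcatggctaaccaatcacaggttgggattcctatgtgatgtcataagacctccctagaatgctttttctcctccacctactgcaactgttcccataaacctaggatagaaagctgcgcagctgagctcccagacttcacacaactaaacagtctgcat
Atp2a2: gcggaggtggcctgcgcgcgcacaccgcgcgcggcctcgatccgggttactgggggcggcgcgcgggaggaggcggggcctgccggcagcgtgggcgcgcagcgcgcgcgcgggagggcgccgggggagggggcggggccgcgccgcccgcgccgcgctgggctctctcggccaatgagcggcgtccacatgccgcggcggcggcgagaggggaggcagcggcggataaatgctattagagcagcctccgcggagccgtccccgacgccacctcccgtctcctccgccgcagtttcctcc
Ryr2: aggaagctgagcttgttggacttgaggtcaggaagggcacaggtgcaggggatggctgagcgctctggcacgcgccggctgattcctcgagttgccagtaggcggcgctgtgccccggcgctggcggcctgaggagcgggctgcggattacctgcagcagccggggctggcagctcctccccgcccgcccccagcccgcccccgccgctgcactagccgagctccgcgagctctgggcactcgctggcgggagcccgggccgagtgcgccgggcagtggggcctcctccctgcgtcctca
Casq2: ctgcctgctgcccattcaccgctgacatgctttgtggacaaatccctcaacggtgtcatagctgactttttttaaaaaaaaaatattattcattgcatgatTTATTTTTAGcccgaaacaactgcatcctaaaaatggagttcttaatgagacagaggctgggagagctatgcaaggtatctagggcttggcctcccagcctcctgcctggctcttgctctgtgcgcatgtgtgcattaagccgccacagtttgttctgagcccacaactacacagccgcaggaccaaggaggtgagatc
The 9 members with a RefSeq promoter, all but Sln, were searched on both strands for 5 motifs. The NR4A response element searched, AAAGGTCA, was in none of the 9, and in 1.43% of all 33469 promoters of this length. Other binding sites of NR4A receptors were not searched. The motifs CATTCC (MCAT, bound by TEAD factors) and TATAAA were in none of the 9 either, against 14.2% and 14.2% of all promoters. A CArG box was in none, against 1.64%. A MEF2 site, named for a family of muscle transcription factors, was in Casq2 alone, beginning 149 bases before the gene start and matching on both strands, and 3.29% of all promoters hold one. These matches describe the letters of a 300-base window and nothing further from the gene. The 4 promoters differed in base composition, with a GC content of 45.0% for Pln, 47.7% for Casq2, 73.0% for Ryr2, and 79.0% for Atp2a2.

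Values are FPKM, which the authors calculated for each RefSeq transcript from its fragments, its length, and the mapped fragments of the sample, so that levels of different genes are compared per length. The depth recovered from the steps between low values was 18700000 to 27800000 fragments per sample. Tests covered the 10950 genes that were above 0 in every one of the 12 samples. Nr4a2 itself checked the labels, rising from 0.884 ± 0.309 FPKM (SD, n = 6) in Ad-GFP to 524 ± 70.3 in Ad-h-NR4A2, with no overlap. Reads of the human transgene may be counted on this rat transcript, and their share was not tested. Ventricular markers were abundant, and the summed FPKM of Tnnt2, Tnni3, Myh6, Myl2, Myl3, and Actc1 was 33257 to 40755 in Ad-GFP. In Ad-h-NR4A2 that sum was lower, at 29549 to 35620, and 3 of these 6 genes were called lower, namely Myh6 (log2 fold change -0.56), Tnnt2 (-0.26), and Myl2 (-0.20). In RNA from whole cultures, fewer cells of a type and less RNA per cell cannot be told apart. Summed markers of other cells stayed low in both groups, at 9.04 to 30.1 against 5.80 to 26.4 FPKM for 6 fibroblast genes, 4.99 to 16.3 against 3.97 to 15.2 for 4 endothelial genes, 5.19 to 7.58 against 4.22 to 6.17 for 3 smooth muscle genes, and 0.266 to 1.17 against 0.881 to 2.60 for 3 macrophage genes. The fibroblast gene Col1a2 was listed at 0 in all 12 samples. Of these genes Cd14 was called higher (log2 fold change 1.99), and Col3a1 (-0.94) and Myh11 (-0.61) lower. Their part in the results was not tested.

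NR4A2 overexpression was accompanied by lower transcript levels of phospholamban, of the ryanodine receptor, and of 3 of the 4 genes for luminal and junctional proteins, whereas the transcript of the cardiac pump did not pass the test. With limma and a Benjamini-Hochberg adjusted p below 0.05 as the call, 5 of the 9 members tested were downregulated (Pln, Ryr2, Hrc, Trdn, and Casq2), 0 were upregulated, and 4 were not called. No member was higher at an unadjusted p below 0.05 either. Over all genes tested, 21.7% were called lower and 19.3% higher. A ratio of group means of at least 1.5 was also met by Pln, Ryr2, and Hrc, and 7.24% of all genes passed both limits as lower and 7.94% as higher. The 2 groups did not overlap for Ryr2, Hrc, and Trdn, against 10.6% of all genes lower and 10.9% higher without overlap. The median log2 fold change of the 9 members was -0.48 (range -1.07 to 0.06), and that of all genes was -0.02. Since the ventricular markers were themselves lower, a fit with every sample scaled to these 6 markers was added after seeing the data. It moved the median of all genes to a log2 of 0.21 and the calls to 6.46% lower and 36.3% higher. On that scale 4 members remained lower (Pln, Ryr2, Hrc, and Trdn), Casq2 was no longer called, and Atp2a2 was called higher. Such a scaling shifts all genes alike and leaves the distance of each member from that median as it was.

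**Figure D1:**
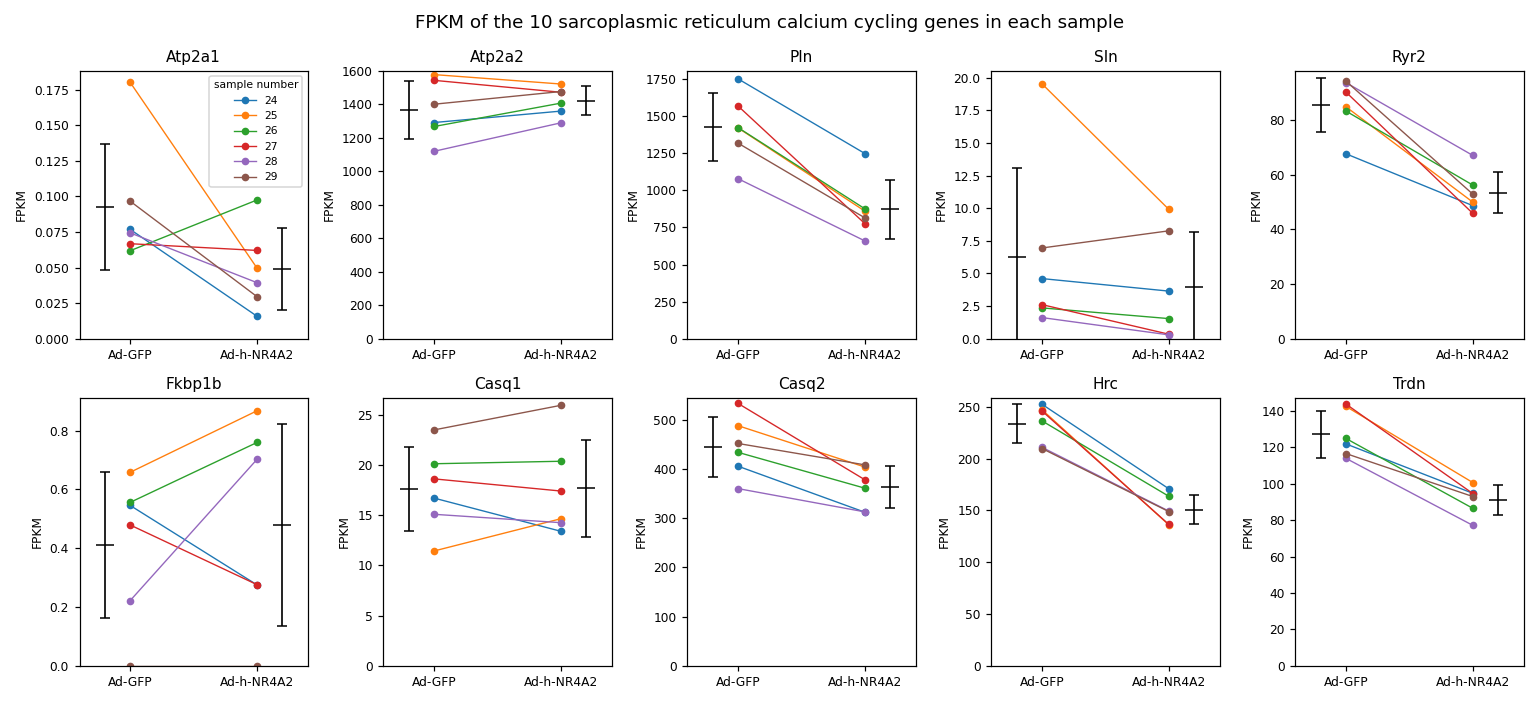
FPKM of each of the 10 genes on a linear axis from 0, with Ad-GFP at left and Ad-h-NR4A2 at right, lines joining samples of the same number, and black bars for the mean and SD of 6 samples, cut at 0 where the SD reaches below it. The lines fall in all 6 pairs for Pln, Ryr2, Casq2, Hrc, and Trdn, cross for Atp2a2, and start far apart for Sln.

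Atp2a2, the gene of the cardiac pump SERCA2, is listed on chromosome 12 (Rn5, 41434651 to 41482924) with 3 transcripts. Its main transcript had FPKM of 1291, 1578, 1268, 1544, 1119.6, and 1401 in Ad-GFP samples 24 to 29 and of 1359.7, 1522, 1408, 1472, 1289.7, and 1477 in Ad-h-NR4A2 samples 24 to 29. The 2 groups overlapped over most of their range, and the Ad-h-NR4A2 sample was the higher one in 4 of 6 pairs. Means were 1367 ± 175 and 1421 ± 86.1 FPKM, a log2 change of 0.06 (SE 0.08, 95% confidence interval -0.11 to 0.23, adjusted p = 0.555 from limma). Scaled to the ventricular markers, the log2 difference was 0.30 (adjusted p = 0.00229), beside a median of 0.21 for all genes on that scale. The other coding transcript, NM_001110823, was at 154.9 and 159 FPKM, and the noncoding transcript NR_027839 at 36.3 and 35.7. The main transcript made up 87.7% ± 0.808 of the gene's FPKM in Ad-GFP and 87.9% ± 1.36 in Ad-h-NR4A2 (exact permutation p = 0.71), so that no shift between transcripts was detected. These transcripts share their span, and how Cufflinks divides fragments between them is an estimate.

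Atp2a1, the gene of the skeletal muscle pump (chromosome 1, 204820064 to 204854172), was near the limit of detection. It ranged from 0.0618 to 0.180 FPKM in Ad-GFP (median 0.0756) and from 0.0157 to 0.0976 in Ad-h-NR4A2 (median 0.0444). The groups overlapped, the Ad-GFP sample was the higher one in 5 of 6 pairs, and the values stood for 4 to 10 fragments in single Ad-GFP samples and 1 to 7 in Ad-h-NR4A2 samples. The log2 fold change of FPKM + 0.1 was -0.37 (SE 0.17, adjusted p = 0.101 from limma). At so low a level its size follows the pseudocount, with -0.86 for 0.01 and -0.06 for 1, and neither was called. Genes of skeletal muscle were also close to 0. The 9 marker genes of that tissue summed to 0.419 to 1.34 FPKM in Ad-GFP and 0.272 to 0.890 in Ad-h-NR4A2, and Tnnt3 and Tnni2 were listed at 0 in all samples.

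Pln, which encodes the pump inhibitor phospholamban (chromosome 20, 36333903 to 36441228), was downregulated. It was at 1754, 1422, 1424, 1570.1, 1079, and 1319 FPKM in Ad-GFP samples 24 to 29 and at 1249, 860.4, 876, 776, 659, and 815 in Ad-h-NR4A2 samples 24 to 29. All but 1 of the Ad-h-NR4A2 samples lay below every Ad-GFP sample, the exception being sample 24, which exceeded Ad-GFP sample 28 and was lower than its own pair. Means were 1428 ± 228 and 873 ± 200.1 FPKM (n = 6 each), a decrease to 0.611 of the Ad-GFP mean. The log2 fold change was -0.72 (SE 0.14, 95% confidence interval -1.02 to -0.42, adjusted p = 0.00101 from limma), and it was lower in 6 of 6 pairs. Pln remained lower on the scale of the ventricular markers (log2 difference -0.49, adjusted p = 0.0101). The Pln values rest on 35363 to 83545 fragments per sample, so that counting error adds little to the spread between samples.

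The difference between inhibitor and pump is best seen within samples, where scaling has no part. The ratio of Pln to Atp2a2 FPKM, with Atp2a2 as its main transcript, was 0.901 to 1.36 in Ad-GFP and 0.511 to 0.919 in Ad-h-NR4A2. It fell in all 6 pairs, and only Ad-h-NR4A2 sample 24 reached into the Ad-GFP range. Mean ratios were 1.05 ± 0.169 and 0.616 ± 0.153, a log2 difference of -0.79 (SE 0.16, two-sided exact permutation p = 0.00433, adjusted p = 0.0216 over the 5 ratios tested). An exact sign-flip test within pairs gave p = 0.0312, the smallest that 6 pairs allow, and an adjusted p of 0.0781. In Ad-GFP, Pln and the main Atp2a2 transcript thus had overlapping levels, with Pln the higher in 3 of 6 samples. In Ad-h-NR4A2 the highest Pln value (1249) was below the lowest value of that transcript (1289.7). With all Atp2a2 transcripts summed, Pln was the higher in fewer Ad-GFP samples. The log2 difference of the ratio was then -0.78 (adjusted p = 0.0108 by exact permutation).

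**Figure D2:**
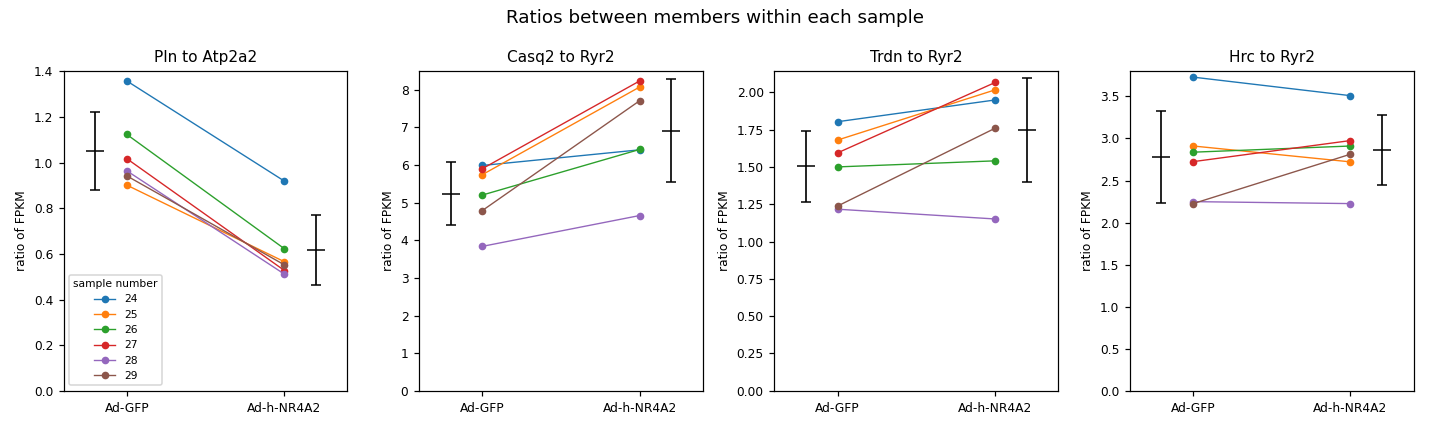
Ratios of FPKM between members within each sample, on linear axes from 0, for Ad-GFP at left and Ad-h-NR4A2 at right, with lines joining samples of the same number and black bars for the mean and SD of 6 samples. The ratio of Pln to Atp2a2 falls in all 6 pairs, that of Casq2 to Ryr2 rises in all 6, and that of Hrc to Ryr2 shows no common direction.

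Sln, which encodes the inhibitor sarcolipin (chromosome 8, 57012681 to 57016928), is known for its expression in atrial and skeletal muscle. It was listed at 4.60, 19.5, 2.35, 2.60, 1.61, and 6.95 FPKM in Ad-GFP samples 24 to 29 and at 3.64, 9.91, 1.53, 0.332, 0.283, and 8.26 in Ad-h-NR4A2 samples 24 to 29. The values spread over more than an order of magnitude within each group, with sample 25 the highest and sample 28 the lowest in both. Means were 6.27 ± 6.78 and 3.99 ± 4.16 FPKM, and the log2 fold change was -1.07 with a wide interval (SE 0.86, 95% confidence interval -2.92 to 0.78, adjusted p = 0.346 from limma). Its size depended on single samples and on the pseudocount. It was -0.58 without Ad-h-NR4A2 sample 28, -0.62 without Ad-h-NR4A2 sample 27, -0.64 without Ad-GFP sample 25, and -1.53 without Ad-h-NR4A2 sample 25, and -0.64 with a pseudocount of 1. With the sample number as a block it was called lower (adjusted p = 0.0226, lower in 5 of 6 pairs), and under that fit 32.3% of all genes were called lower and 27.1% higher. The transcript has only 298 nucleotides. If the lowest sample stands for 1 fragment, the others held up to 51, so that counting error is large in the low samples.

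The variation of Sln between numbers was set beside atrial markers and the summed markers of other cells. Myl7, the atrial light chain, was also highest in sample 25 of both groups (8.03 and 9.81 FPKM). Myl4 was highest there in Ad-h-NR4A2 (8.24 FPKM) and in Ad-GFP just below sample 29 (12.4 against 12.5 FPKM). Nppa, the gene of atrial natriuretic peptide, was highest in sample 28 of both groups (398 and 404 FPKM), where Sln was lowest. Summed over Myl7, Myl4, Nppa, and Bmp10, the atrial markers were at 76.1 to 409 FPKM in Ad-GFP and 78.8 to 412 in Ad-h-NR4A2. Of these, Myl4 was called lower (log2 fold change -0.62). The summed fibroblast and endothelial markers were, like Sln, highest in sample 25 and lowest in sample 28 of both groups. Fibroblast sums there were 30.1 and 9.04 FPKM in Ad-GFP and 26.4 and 5.80 in Ad-h-NR4A2. Endothelial sums were 16.3 and 4.99 in Ad-GFP and 15.2 and 3.97 in Ad-h-NR4A2. The smooth muscle and macrophage sums were not highest in sample 25 of both groups. The part of atrial or other cells in the Sln values was not tested.

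**Figure D3:**
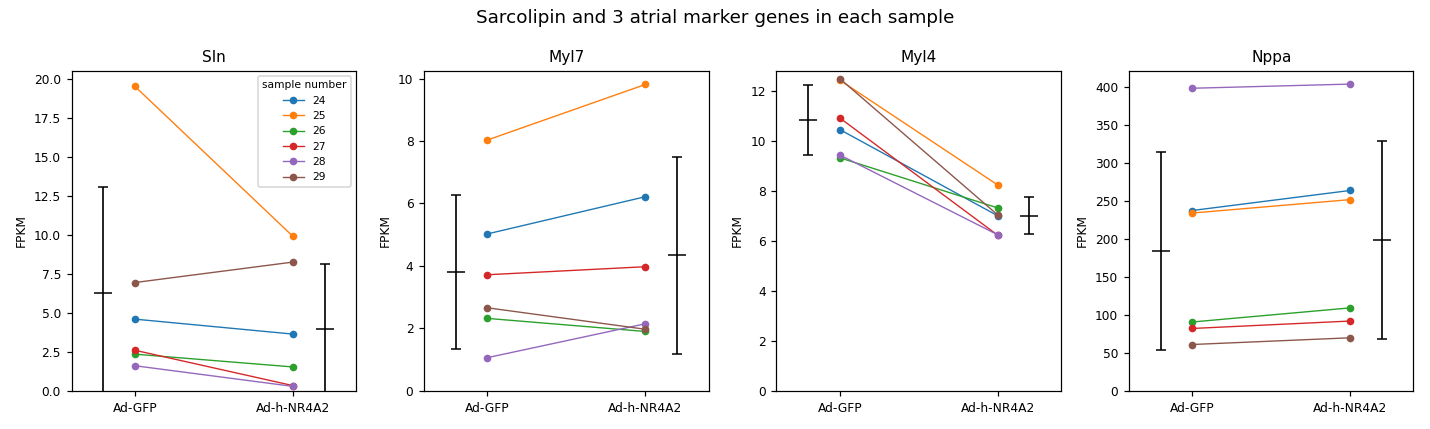
FPKM of Sln and of the atrial marker genes Myl7, Myl4, and Nppa on linear axes from 0, for Ad-GFP at left and Ad-h-NR4A2 at right, with lines joining samples of the same number and black bars for the mean and SD of 6 samples, cut at 0 for Sln. Sample 25 is the highest for Sln and Myl7 in both groups, sample 28 is the highest for Nppa, and Myl4 falls in all 6 pairs.

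Ryr2, the gene of the cardiac ryanodine receptor, through which the SR releases calcium (chromosome 17, 67285205 to 67704766), was downregulated without overlap between groups. Its main transcript was at 67.7, 84.9, 83.3, 90.2, 93.7, and 94.2 FPKM in Ad-GFP samples 24 to 29. In Ad-h-NR4A2 samples 24 to 29 it was at 48.7, 50.0, 56.2, 45.8, 67.1, and 52.9. The gap between groups was narrow, since the lowest Ad-GFP sample (67.7) and the highest Ad-h-NR4A2 sample (67.1) nearly met. These 2 samples carry different numbers, and within each number the decrease was larger. Means were 85.7 ± 9.90 and 53.4 ± 7.56 FPKM, a log2 change of -0.68 (SE 0.10, adjusted p = 8.46e-05 from limma, lower in 6 of 6 pairs). On the scale of the ventricular markers it was -0.45 (adjusted p = 0.00196).

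A second Ryr2 transcript, NM_032078, was listed at 0.533 to 1.05 FPKM in Ad-GFP and 0.0846 to 0.439 in Ad-h-NR4A2, also without overlap. Tested by itself among all transcripts, it had a log2 change of -1.39 (SE 0.27, adjusted p = 0.00146 from limma). Its share of the gene's FPKM was 0.844% ± 0.164 in Ad-GFP and 0.424% ± 0.211 in Ad-h-NR4A2. The share was smaller in 6 of 6 pairs (two-sided exact permutation p = 0.00433, not adjusted). The groups overlapped slightly in this share, with a lowest Ad-GFP value of 0.636% and a highest Ad-h-NR4A2 value of 0.651%. The minor transcript thus decreased more than the main one, within the limits of Cufflinks' division of shared fragments.

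Fkbp1b encodes FKBP12.6, which binds the cardiac ryanodine receptor (chromosome 6, 39899738 to 39908165). It was listed at 0 in sample 29 of both groups, which removed it from the test, and ranged up to 0.658 FPKM in Ad-GFP and 0.868 in Ad-h-NR4A2. Group means were 0.410 ± 0.249 and 0.480 ± 0.344, and the groups overlapped throughout (exact permutation p = 0.866). With 327 nucleotides the transcript is about as short as that of Sln. If its lowest sample above 0 stands for 1 fragment, single samples held 0 to 2 in Ad-GFP and 0 to 4 in Ad-h-NR4A2. A difference was not detectable at this depth. Its ratio to Ryr2, over the 5 samples per group where it was above 0, was 0.00603 ± 0.00232 and 0.0106 ± 0.00499 (exact permutation p = 0.119, adjusted p = 0.198).

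Hrc encodes the histidine-rich calcium binding protein of the SR lumen (chromosome 1, 102388311 to 102391914), and had the lowest spread of the members in Ad-GFP, with a coefficient of variation of 8.08%. It was at 252, 247, 236, 246, 211, and 209.7 FPKM in Ad-GFP samples 24 to 29 and at 171, 136, 164, 136, 149, and 149 in Ad-h-NR4A2 samples 24 to 29. The groups were well apart, and the spread within each was smaller than the gap between their means. Means were 234 ± 18.9 and 151 ± 14.1 FPKM, a log2 change of -0.63 (SE 0.07, adjusted p = 7.41e-06 from limma, lower in 6 of 6 pairs).

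Trdn encodes triadin, the anchor between calsequestrin and the release channel (chromosome 1, 26865461 to 27299940). It was at 122, 143, 125, 144, 114, and 117 FPKM in Ad-GFP samples 24 to 29 and at 94.8, 100.7, 86.6, 94.7, 77.2, and 93.0 in Ad-h-NR4A2 samples 24 to 29. Again every Ad-GFP sample was above every Ad-h-NR4A2 sample. Means were 127 ± 12.9 and 91.2 ± 8.21 FPKM, a log2 change of -0.48 (SE 0.07, adjusted p = 0.000173 from limma), which stayed short of the 1.5-fold limit. On the scale of the ventricular markers, the log2 difference was -0.40 for Hrc (adjusted p = 0.00239) and -0.25 for Trdn (adjusted p = 0.0280).

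Casq2 encodes the cardiac calsequestrin (chromosome 2, 223945611 to 224001893) and changed least of the members that were called. It was at 405, 487, 433, 533, 359.7, and 451 FPKM in Ad-GFP samples 24 to 29 and at 312, 404, 361, 378, 312, and 408 in Ad-h-NR4A2 samples 24 to 29. The groups overlapped, although Casq2 was lower in 6 of 6 pairs. Means were 445 ± 60.8 and 362 ± 42.6 FPKM, a log2 change of -0.29 (SE 0.10, 95% confidence interval -0.50 to -0.08, adjusted p = 0.0266 from limma). The call did not hold on the scale of the ventricular markers (-0.06, adjusted p = 0.557) or without a filter on low values, where the log2 fold change was the same (-0.29, adjusted p = 0.0666). It was also lost when Ad-GFP sample 25 or 27 or Ad-h-NR4A2 sample 24 or 28 was left out (-0.26 to -0.24, adjusted p = 0.0555 to 0.0595). It held with the sample number as a block (adjusted p = 0.00031), with quantile normalization (-0.34, adjusted p = 0.00825), and on the TPM scale (-0.31, adjusted p = 0.0115).

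Casq1, the calsequestrin of skeletal muscle (chromosome 13, 95113781 to 95123470), did not differ between groups beyond its spread. It ranged from 11.4 to 23.5 FPKM in Ad-GFP (median 17.7) and from 13.4 to 25.95 in Ad-h-NR4A2 (median 16.0). The samples of each group covered nearly the same range, and 3 pairs rose while 3 fell. The log2 fold change was 0.00 (SE 0.18, 95% confidence interval -0.39 to 0.40, adjusted p = 0.991 from limma), an interval that still holds changes in either direction of the size seen for Casq2. Casq2 thus outnumbered Casq1 per length in both groups, as the lowest Casq2 value (312 FPKM) was far above the highest Casq1 value (25.95 FPKM).

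Ratios to Ryr2 show how the partners of the channel changed relative to it. Casq2 to Ryr2 was 3.84 to 5.99 in Ad-GFP and 4.66 to 8.24 in Ad-h-NR4A2, higher in 6 of 6 pairs but with overlapping groups. Mean ratios were 5.24 ± 0.827 and 6.92 ± 1.37 (log2 difference 0.39, SE 0.16, two-sided exact permutation p = 0.0390, adjusted p = 0.0974 over the 5 ratios), which missed the threshold. It passed without Ad-h-NR4A2 sample 28 (log2 difference 0.50, adjusted p = 0.0216). Trdn to Ryr2 was 1.505 ± 0.237 and 1.75 ± 0.350 (log2 difference 0.20, SE 0.16, exact permutation p = 0.232, adjusted p = 0.290). Hrc to Ryr2 was 2.78 ± 0.551 and 2.86 ± 0.415 (log2 difference 0.05, SE 0.14, exact permutation p = 0.779, adjusted p = 0.779), rising in 3 pairs and falling in 3. No change of these 3 ratios was thus detected after adjustment.

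With each gene taken as its main transcript, the order of the mean levels per length changed only between Pln and Atp2a2. In Ad-GFP, mean FPKM ran from Pln (1428) and Atp2a2 (1367) through Casq2 (445), Hrc (234), Trdn (127), Ryr2 (85.7), Casq1 (17.6), Sln (6.27), and Fkbp1b (0.410) to Atp2a1 (0.0928). Pln and Atp2a2 overlapped in that order, as did Casq1 and Sln, and Fkbp1b and Atp2a1, whereas Casq2, Hrc, Trdn, and Ryr2 were each separate from their neighbors. In Ad-h-NR4A2, Atp2a2 (1421) came first and Pln (873) second without overlap, and the order of the means below was the same, with Sln now overlapping Fkbp1b rather than Casq1. With its other transcripts added (154.9 and 36.3 FPKM in Ad-GFP), Atp2a2 came before Pln by mean in Ad-GFP too. The spread also differed between members. The coefficient of variation in Ad-GFP was 8.08% to 16% for Hrc, Trdn, Ryr2, Atp2a2, Casq2, and Pln, 23.8% for Casq1, and 47.9% to 108% for Atp2a1, Fkbp1b, and Sln. For Atp2a2, Pln, Sln, and Fkbp1b the same number was highest and the same lowest in both groups.

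Other genes of SR calcium handling were taken as a list of 29 genes, of which Ryr1, Ryr3, Asph, and Srl were not analysed here. Of the 25 genes listed and 24 tested, 10 were called lower, 5 higher, and 9 were not called, where 21.7% of all genes were lower and 19.3% higher. The median log2 fold change of the 24 was -0.08, against -0.48 for the 9 members and -0.02 for all genes. With the 1.5-fold limit, 5 were lower and 2 higher (7.24% and 7.94% of all genes), and 6 lower and 3 higher genes had groups without overlap (10.6% and 10.9% of all genes). With the sample number as a block, 11 were lower and 8 higher (32.3% and 27.1% of all genes). On the scale of the ventricular markers, 5 were lower and 9 higher (6.46% and 36.3% of all genes). The numbers of higher genes among the 24 were near these shares with all samples and on the scale of the ventricular markers.

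Among 9 tested genes of release and of the junction between SR and cell membrane, 5 were lower and 2 higher, against 21.7% and 19.3% of all genes. Speg, a striated muscle kinase of the junctional SR, decreased most, from 14.3 ± 2.48 to 6.52 ± 0.795 FPKM (log2 fold change -1.11, SE 0.12, adjusted p = 5.39e-06 from limma). Its groups did not overlap. Jph1, a junctophilin that bridges SR and cell membrane, decreased from 16.6 ± 1.12 to 10.5 ± 1.28 FPKM (log2 fold change -0.66). Tmem38b, a monovalent cation channel of the SR (TRIC-B), decreased from 18.2 ± 1.98 to 11.8 ± 0.752 FPKM (log2 fold change -0.62). Neither gene's groups overlapped. Sri, which encodes sorcin, a calcium-binding protein that interacts with the ryanodine receptor, went the other way, from 25.3 ± 2.41 to 43.8 ± 6.46 FPKM (log2 fold change 0.78, SE 0.10, adjusted p = 2.70e-05 from limma, higher in 6 of 6 pairs). All 4 genes kept their call and direction on the scale of the ventricular markers.

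Among 8 tested inositol trisphosphate receptors and genes of store-operated calcium entry, 4 were lower and 1 higher, against 21.7% and 19.3% of all genes. Orai1, the pore of the store-operated channel, decreased from 28.8 ± 0.537 to 19.0 ± 2.07 FPKM (log2 fold change -0.60, SE 0.06) without overlap. Itpr1, an inositol trisphosphate receptor, increased from 5.61 ± 0.511 to 8.48 ± 0.669 FPKM (log2 fold change 0.59, SE 0.08, adjusted p = 4.05e-05 from limma) without overlap. Itpr3, a receptor of the same family, was listed at 0.311 ± 0.177 and 0.148 ± 0.0587 FPKM (log2 fold change -0.67, SE 0.24, adjusted p = 0.0369), with overlapping groups. Its call did not hold on the scale of the ventricular markers (adjusted p = 0.132).

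Among 7 tested genes of uptake and of the SR lumen, 1 was lower and 2 were higher, against 21.7% and 19.3% of all genes, and none of these reached the 1.5-fold limit. Strit1, which encodes DWORF, a peptide that counters phospholamban, is not listed by that name. It was taken as LOC102546391, matched through its RefSeq gene ID. The transcript used, NR_131134, carries a RefSeq number for noncoding RNA. It was at 409.6 ± 80.1 FPKM in Ad-GFP and 462 ± 92.5 in Ad-h-NR4A2. Strit1 is named as the activating counterpart of Pln and was chosen after its values were seen. The groups overlapped (log2 fold change 0.17, SE 0.17, adjusted p = 0.462 from limma), yet the gene was higher in 6 of 6 pairs and was called with the sample number as a block (adjusted p = 9.54e-04). Mrln, another peptide regulator of the pump, was listed at 0 in most samples and was not tested.

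**Figure D4:**
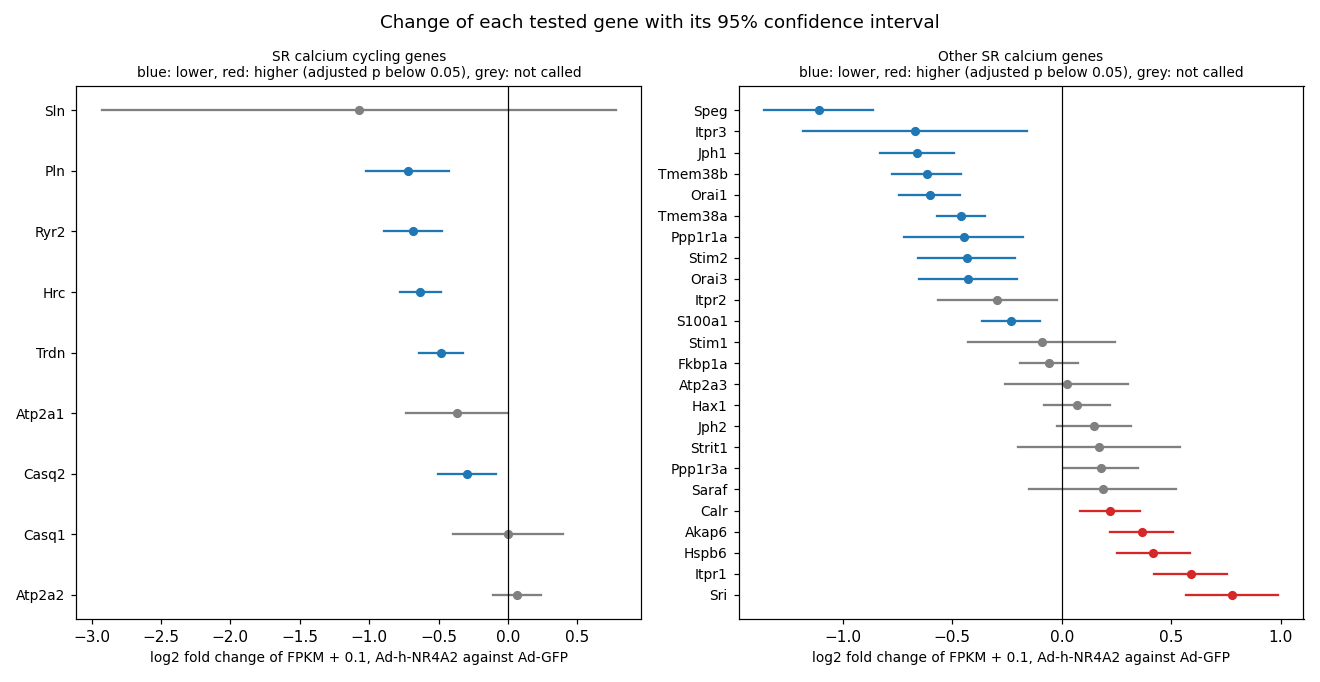
Log2 fold change of FPKM + 0.1 in Ad-h-NR4A2 against Ad-GFP with its 95% confidence interval, for the 9 tested members at left and the 24 other tested SR calcium genes at right (axes differ). Blue marks genes called lower and red genes called higher at an adjusted p below 0.05, and grey those not called. The members run from -1.07 for Sln, with the widest interval, to 0.06 for Atp2a2, which is called higher only on the scale of the ventricular markers, where Casq2 is not called.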

How the data were processed

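FPKM values of 12 ARVM samples, 6 per group, were used as deposited by the authors. Per the study's methods and the submitters' processing notes, stranded mRNA libraries were sequenced with paired-end reads in 1 pooled run, aligned to Rn5 with STAR, and quantified per RefSeq transcript with Cufflinks. The study gives a version for the Cufflinks workflow but none for STAR. Coordinates of genes are Rn5 and those of promoters GRCr8, and the builds were not mixed.

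Groups and numbers came from the sample labels, which do not say what a number stands for. Deviations of same-numbered samples from their group means correlated in all 6 pairs (0.347 to 0.623 over 10950 genes), and the study describes independent experiments with different rats, so that the numbers were treated as pairs in the alternative with a replicate block. The members and gene lists were chosen with earlier results of these data known. All members are named, as are those of the other SR genes that were called and passed the 1.5-fold limit.

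Of genes with several transcripts, the one highest in mean FPKM was used. Genes above 0 in all 12 samples were fitted on log2(FPKM + 0.1), a scale that understates changes of low genes, in R 4.3.3 by limma 3.58.1 (lmFit, then trended eBayes), unpaired and two-sided, with Benjamini-Hochberg adjustment over all genes. The procedure was tested on simulated data with independent samples, which do not cover the correlation between same-numbered samples. Ratios were compared by exact permutation over all divisions into 6 and 6 (smallest p 0.00216), or into 5 and 5 for Fkbp1b to Ryr2 (smallest p 0.00794). Alternatives were pseudocounts of 1 and 0.01, no filter, quantile normalization, a minimum mean FPKM of 1, rescaling to TPM, no trend, the replicate block, transcripts summed or tested singly, a fold limit of 1.5, each sample left out, and, chosen after seeing the data, scaling to the 6 ventricular markers. Depth was recovered from transcripts of at least 800 nucleotides, where 99.4% to 99.9% of values of at most 6 fragments were whole within 0.05. Fragment numbers cover counting error only. Python 3.11.15 was used with SciPy 1.17.1, NumPy 2.4.6, pandas 2.3.3, and Matplotlib 3.10.9 for plots.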

Additional observations from a re-analysis of the deposited data

Results flagged for a closer look

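In 6 of 52 groups of 6 samples, the highest sample lay far from the other 5. The limit used is passed in about 1 in 20 groups of normal values. FPKM need not be normal and the groups share samples, so the count cannot be set against that rate. Ad-h-NR4A2 sample 24 was such a sample for Pln (1249 FPKM, the others 659 to 876), for the ratio of Pln to Atp2a2 (0.919, the others 0.511 to 0.622), and for the Atp2a2 transcript NM_001110823 (186 FPKM, the others 144 to 159.6). Without it, the log2 fold change of Pln was -0.83 and the log2 difference of the ratio -0.91, both past the threshold. Ad-GFP sample 25 was such a sample for Sln (19.5 FPKM, the others 1.61 to 6.95) and Atp2a1 (0.180 FPKM, the others 0.0618 to 0.0967). Ad-GFP sample 29 was one for Itpr3 (0.654 FPKM, the others 0.199 to 0.352).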

How the results depend on the processing

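Pln, Ryr2, Hrc, Trdn, and Nr4a2 kept their direction and an adjusted p below 0.05 from limma under all 23 alternative fits of each. In that order, their log2 fold changes were -0.83 to -0.49, -0.75 to -0.45, -0.67 to -0.40, -0.52 to -0.25, and 8.13 to 9.33. The fold limit of 1.5 is not among these fits, and Trdn fell short of it. With the 1.5-fold limit, 3 members were called lower, against 7.24% of all genes. On the scale of the ventricular markers, 1 member was called higher, against 36.3% of all genes. With single samples left out, 4 to 6 members were called lower. Among the other SR calcium genes, 5 were lower and 2 higher with the fold limit (7.24% and 7.94% of all genes). On the scale of the ventricular markers, 5 were lower and 9 higher (6.46% and 36.3% of all genes). With the replicate block, 8 were higher (27.1% of all genes). With single samples left out, 9 to 11 were lower and 5 to 6 higher. Shares of all genes were not taken for the fits with single samples left out. The block gave the ratio of Pln to Atp2a2 a log2 difference of -0.79 with an adjusted p of 0.0781, from sign flips whose p cannot go below 0.0312, and leaving out single samples gave -0.91 to -0.71 (adjusted p = 0.0216 to 0.0433 by exact permutation). Besides that ratio, Sln, and the other SR calcium genes Strit1, Saraf, Ppp1r3a, and Itpr2, the block changed no call of a member, a ratio, or another SR calcium gene. Leaving out single samples gave 0.30 to 0.50 for Casq2 to Ryr2 and -0.011 to 0.14 for Hrc to Ryr2, whose sign changed without Ad-GFP sample 28 or 29 or Ad-h-NR4A2 sample 24. The log2 fold change of Casq1 was -0.016 on the TPM scale and -0.11 to 0.094 with single samples left out. Atp2a1 was called lower without Ad-h-NR4A2 sample 26 (-0.45, adjusted p = 0.0499). Where calls changed, the cause was not tested. Atp2a1 and Fkbp1b rest on few fragments in every sample, and Sln in its low samples, where counting error is large.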
